A study of Mus musculus with 7 samples.

Results

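Autophagy wraps cytoplasm, damaged organelles or bacteria in a double membrane, the autophagosome, and delivers them to the lysosome. A kinase complex starts the process, a lipid kinase marks the membrane, and a conjugation system couples small ATG8 proteins (the LC3 and GABARAP families) to it, so that cargo receptors can bind. Paneth cells, which sit at the bottom of the crypts of the small intestine and secrete antimicrobial granules, are known for their dependence on this machinery: mice with reduced Atg16l1, or without Irgm1, have misshapen Paneth granules, and Lrrk2 has been tied to lysozyme sorting in mouse Paneth cells.

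The 43 genes described here are components and regulators of autophagy taken by symbol and not by a measured value. All 43 were found once each among the 52550 genes counted in the files, and 42 passed the filter on low counts. The exception was Lrrk2. RNA was sequenced from sorted Paneth cells. All mice were C57BL/6J and carried the Lgr5-EGFP-IRES-CreERT2 allele, in which EGFP and an inducible Cre are made from the Lgr5 locus. The 4 DSS libraries came from mice of 12, 10, 10 and 10 weeks (DSS 1 to 4) given 3% dextran sulfate sodium, which injures the gut epithelium, in the drinking water for 7 days and examined 3 days after it was withdrawn. The 3 water libraries came from mice of 12, 12 and 10 weeks. The labels do not say outright that each library is 1 animal, so the p-values reflect sample-to-sample spread that may be partly technical. The comparison of DSS with water asks how Paneth cells respond to gut inflammation.

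Library totals ran from 23175708 to 32451653 counts, and every pair of libraries within a group differed by more than counting noise (chi-square over its degrees of freedom 13.3 or more). All days of RNA isolation held 1 group only, so isolation day and treatment cannot be told apart. The 3 water libraries and DSS 4 share a run tag, read here as lane 6. DSS 1 to 3 lie outside it, so for them the tag and treatment cannot be told apart. The 8 Paneth markers, among them Lyz1 and Defa24, summed to 224344 to 241062 CPM in water and to 192345, 154129, 110332 and 115014 CPM in DSS 1 to 4, with 7 of 8 estimates below 0. Of the other cell types that the sort could have held, 6 tuft cell markers summed to 389 to 411 CPM in water and 372 to 721 in DSS, with DSS 2 and DSS 3 highest. The 6 goblet cell markers summed to 5928 to 7313 CPM in water and 5171 to 9800.1 in DSS, highest in DSS 4. Their estimates were above 0 for 3 and below 0 for 3. Clca1 was higher (4.46-fold) and Agr2 lower (0.704-fold) without overlap between the groups. The 6 stem cell markers summed to 4053 to 4898 CPM in water and 3965 to 4858 in DSS. Their estimates were above 0 for 4 and below 0 for 2, with Ascl2 at 1.29-fold without overlap and Lgr5 at 0.614-fold with overlap. The 6 enteroendocrine markers summed to 57.0 to 2206 CPM in water and 385 to 1030.3 in DSS, and the 7 enterocyte markers to 261 to 333 and 239 to 371. The 6 white blood cell markers summed to 10.2 to 15.9 CPM in water and 10.6 to 19.9 in DSS, with Cd3e at no more than 1 count in any library, and the 4 mesenchymal markers never exceeded 5 counts. The 3 endothelial markers summed to 0.223 to 1.09 CPM in water and 0.647 to 1.68 in DSS, and the 4 erythroid markers to 0.357 to 1.92 and 0.616 to 2.92. The part these markers have in the results below was not tested, and in bulk RNA fewer cells of a type and less RNA per cell cannot be told apart.

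Of the 43 autophagy genes, 42 were expressed above the filter, and their differences between DSS and water were small. Over all 17449 genes tested, edgeR called 0 genes higher (0% of those tested) and 0 lower (0%) at an adjusted p under 0.05, and 0 of the 42 autophagy genes passed, with adjusted p-values from 0.157 to 0.961. At an unadjusted p under 0.05, 9 of the 42 were lower in DSS, which is 21.4% against 7.35% of all genes tested, and 1 was higher, 2.38% against 8.36% of all genes. All 4 DSS libraries lay below all 3 water libraries for 7 of the 42, or 16.7%, against 7.52% of all genes, and above them for 1, against 7.40%. Estimates were below 0 for 28 of the 42, where 50.3% of all genes were below 0 and 49.7% above. The median log2 change was -0.08, beside a median of -0.0016 over all genes tested. DESeq2, a second count test, called 2 of the 42 lower at an adjusted p under 0.05, Rb1cc1 and Nbr1, and 0 higher, against 2.24% and 2.62% of its genes with an adjusted p.

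These directions turned with library totals, but not with the other scalings tried. With DESeq2 size factors in edgeR, 14 of the 42 estimates were above 0 and their median was -0.081. With scaling without granule genes, 14 were above 0 and the median was -0.080. TMM also had 14 above 0. With library totals in place of TMM the median of all genes moved to 0.23 and that of the 42 to 0.15. Of the 42, 33 were then above 0. Relative to all genes the 42 were at -0.08 under both. This had to follow, since a change of scaling shifts all genes by nearly the same amount. Atg3, Pik3c3 and Wipi1, lower at an unadjusted p under 0.05 with TMM, were above 0 with library totals. The others lower at that threshold stayed below 0 in every setting tried, but some came close to it. Their estimates nearest 0 were -0.0040 for Rb1cc1, -0.021 for Atg5, -0.044 for Nbr1, -0.045 for Vmp1, -0.059 for Atg13 and -0.062 for Sqstm1. At an unadjusted p under 0.05, library totals left 0 of the 42 lower, against 1% of all genes, and put 14 higher, which is 33.3% against 35.7% of all genes.

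The intervals of the main fit also limit the size of the changes, within that fit. The 95% interval of the log2 change, not adjusted for the number of genes, reached between 0.12 and 0.41 to either side of the estimate, and for 42 of 42 genes it lay inside a 1.5-fold change in either direction under TMM scaling. The largest estimate by size was that of Sqstm1, at 0.817 of its water level. The summed level of all 43 genes was 2384, 2559 and 2384 CPM in water 1 to 3 and 2333, 2309, 2145 and 2114 CPM in DSS 1 to 4. With TMM the highest DSS library thus lay just below the lowest water library. With library totals this separation was lost and turned: the sums were 2183, 2299.8 and 2197 CPM in water and 2286, 2419, 2453 and 2375 CPM in DSS, with DSS 2 to 4 above every water library. Of the water sum, 38% came from Nbr1, Tax1bp1, Sqstm1 and Gabarap.

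**Figure D1:**
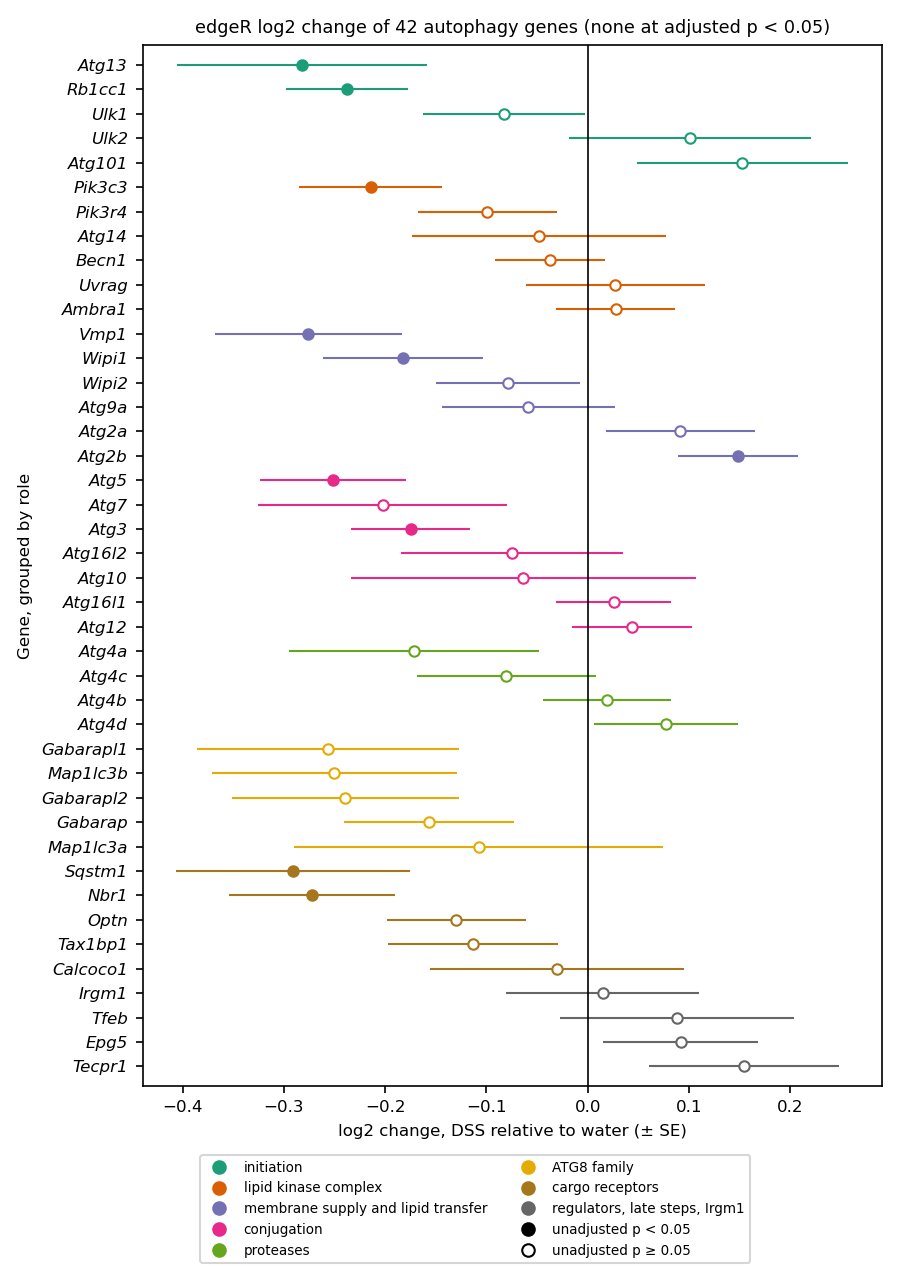
Log2 change (DSS over water) of 42 autophagy genes, each with its edgeR standard error, grouped and coloured by role (7 libraries). Filled points mark an unadjusted p under 0.05, and the 10 estimates for the ATG8 family and the cargo receptors all lie to the left of 0, of which Gabarap, Map1lc3a, Optn, Tax1bp1 and Calcoco1 turn with library totals.

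Levels differed far more between genes than between treatments. Per kb of exon, the highest of the 42 genes in water was 61.4 times the lowest. Gabarap, an ATG8 protein, led with 82.4 ± 5.77 CPM per kb (SD, n = 3). The cargo receptors Sqstm1 and Nbr1 followed with 55.0 ± 7.86 and 45.5 ± 0.878 CPM per kb, and the spread of Sqstm1 reached down close to Nbr1. Vmp1, a membrane protein of the endoplasmic reticulum needed for autophagosome formation, was at 31.9 ± 3.12 and the cargo receptor Tax1bp1 at 27.8 ± 1.74 CPM per kb, with overlapping spreads. At the low end stood Atg16l2, a relative of Atg16l1, at 1.34 ± 0.108, Tfeb, a transcription factor of lysosomal and autophagy genes, at 1.43 ± 0.122, and Uvrag, a partner of Becn1, at 1.66 ± 0.0800 CPM per kb. Exon length is the union of all annotated exons of a gene, so transcripts shorter than that union appear lower on this scale than they are.

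**Figure D2:**
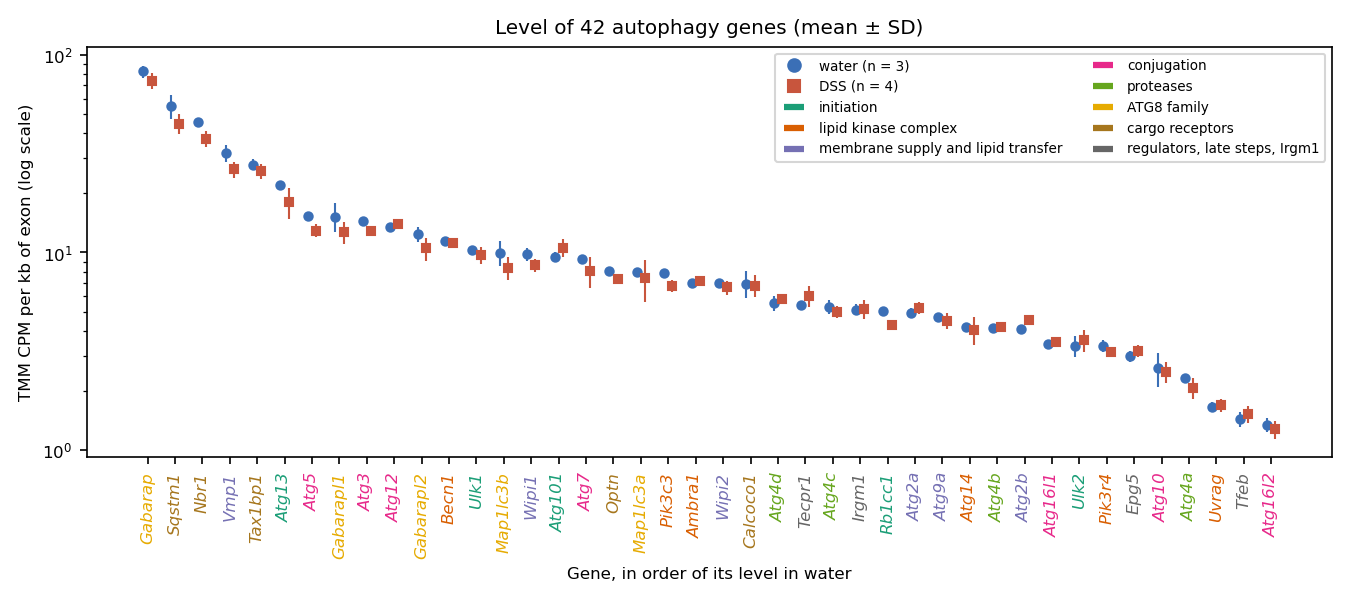
Mean level of 42 autophagy genes in CPM per kb of exon on a log axis, in order of the water mean, with the SD over 3 water libraries (circles) and 4 DSS libraries (squares). Gene names are coloured by role, and the water means span 61.4-fold.

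Of the 3 genes tied to Paneth cell granules, Lrrk2 was at or near 0 and the other 2 overlapped between the groups with TMM. Lrrk2, a large kinase, had 2 counts over the 7 libraries, both in water 3, so that it lay under the 3-count floor of every library (0.0883 to 0.144 CPM). It was not tested. Atg16l1, whose product directs the conjugation machinery to the membrane, was 33.8, 32.9 and 32.8 CPM in water 1 to 3 and 32.5, 33.2, 34.1 and 35.2 CPM in DSS 1 to 4. With TMM the groups overlapped, and the log2 change of 0.03 ± 0.06 (SE) had a 95% interval of -0.10 to 0.15. Over all settings tried, the estimate for Atg16l1 ran from 0.0047 to 0.26, past the upper end of that interval. Irgm1, an interferon-induced GTPase, was 27.8, 31.2 and 30.7 CPM in water and 27.0, 32.9, 27.5 and 33.3 CPM in DSS, where DSS 2 and DSS 4 were high and DSS 1 and DSS 3 low. Its log2 change was 0.01 ± 0.10, with an interval of -0.20 to 0.23 and an edgeR adjusted p of 0.961, and its sign turned with the age covariate and without water 1, DSS 2 or DSS 4. In mm10, Atg16l1 (ENSMUSG00000026289.15) lies on chromosome 1 from 87755870 to 87792428, plus strand, Irgm1 (ENSMUSG00000046879.7) on chromosome 11 from 48861968 to 48871683, minus strand, and Lrrk2 (ENSMUSG00000036273.15) on chromosome 15 from 91673175 to 91816120, plus strand.

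Among the 5 initiation genes, which form the ULK kinase complex, 2 were lower at an unadjusted p under 0.05 and 0 were higher. Rb1cc1, the large scaffold of the complex (also known as FIP200), was 75.7, 71.7 and 76.6 CPM in water 1 to 3 and 67.1, 59.4, 62.3 and 64.6 CPM in DSS 1 to 4. Every DSS library was below every water library. The log2 change of -0.24 ± 0.06 had the smallest p of all 42 genes (edgeR adjusted p = 0.157), and in DESeq2 the adjusted p was 0.0369. Rb1cc1 (ENSMUSG00000025907.14) lies on chromosome 1 from 6206197 to 6276648, plus strand. Atg13, the adaptor between kinase and scaffold, was 94.4, 100.05 and 91.7 CPM in water and 96.4, 82.3, 70.4 and 64.9 CPM in DSS. DSS 1 lay within the water range while DSS 3 and DSS 4 were lowest, and the estimate was -0.28 ± 0.12. The kinases Ulk1 and Ulk2 were at -0.08 ± 0.08 and 0.10 ± 0.12. Ulk2 was 20.8, 17.5 and 22.1 CPM in water and 17.9, 22.6, 24.5 and 21.3 CPM in DSS, and the groups overlapped. Atg101, the partner of Atg13, was 12.2, 12.0 and 10.9 CPM in water and 11.9, 14.9, 12.2 and 13.0 CPM in DSS, highest in DSS 2, with a log2 change of 0.15 ± 0.10.

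The lipid kinase complex, which makes the phosphatidylinositol 3-phosphate that marks the forming membrane, had 1 of 6 genes lower at an unadjusted p under 0.05 and 0 higher. Pik3c3, that subunit, was 33.7, 35.7 and 36.0 CPM in water and 32.0, 27.2, 31.0 and 31.0 CPM in DSS, lowest in DSS 2 and without overlap. Its log2 change was -0.21 ± 0.07 (edgeR adjusted p = 0.214). The other 5 members had p-values above 0.05. The regulatory subunit Pik3r4 was at -0.10 ± 0.07, Atg14, which steers the complex to autophagy, at -0.05 ± 0.13, the scaffold Becn1 at -0.04 ± 0.05, Uvrag at 0.03 ± 0.09 and Ambra1, a regulator of Becn1, at 0.03 ± 0.06. Becn1 was 81.7, 82.4 and 79.5 CPM in water and 78.5, 82.8, 79.4 and 75.9 CPM in DSS. Of its exon bases, 43.9% are shared with Cntd1 on the opposite strand, which had 375 counts over the 7 libraries beside 14862 for Becn1.

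Of 6 genes of membrane supply and lipid transfer, 2 were lower and 1 higher at an unadjusted p under 0.05. Vmp1 was 112, 136 and 122 CPM in water and 112, 102, 89.2 and 104 CPM in DSS, with DSS 3 lowest and DSS 1 level with water 1. Its log2 change of -0.28 ± 0.09 had an edgeR adjusted p of 0.219. Wipi1, which binds phosphatidylinositol 3-phosphate, was 41.2, 41.7 and 46.9 CPM in water and 40.8, 40.5, 35.9 and 35.4 CPM in DSS, where all 4 libraries were below water by a small margin (-0.18 ± 0.08). Atg2b, a lipid transfer protein that feeds the growing membrane, was the 1 gene of the 42 higher in DSS at an unadjusted p under 0.05. It was 57.6, 53.2 and 55.2 CPM in water and 62.9, 59.1, 64.1 and 59.1 CPM in DSS, and every DSS library was above every water library. The log2 change was 0.15 ± 0.06 (edgeR adjusted p = 0.279). Its p did not stay under 0.05 without water 2, without water 3, without DSS 1 or without DSS 3. Its paralog Atg2a was 36.3, 40.3 and 37.4 CPM in water and 43.7, 41.7, 39.5 and 37.1 CPM in DSS (0.09 ± 0.07), with an overlap. Wipi2 was at -0.08 ± 0.07 and Atg9a, the transmembrane protein that travels in vesicles to the forming autophagosome, at -0.06 ± 0.09.

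**Figure D3:**
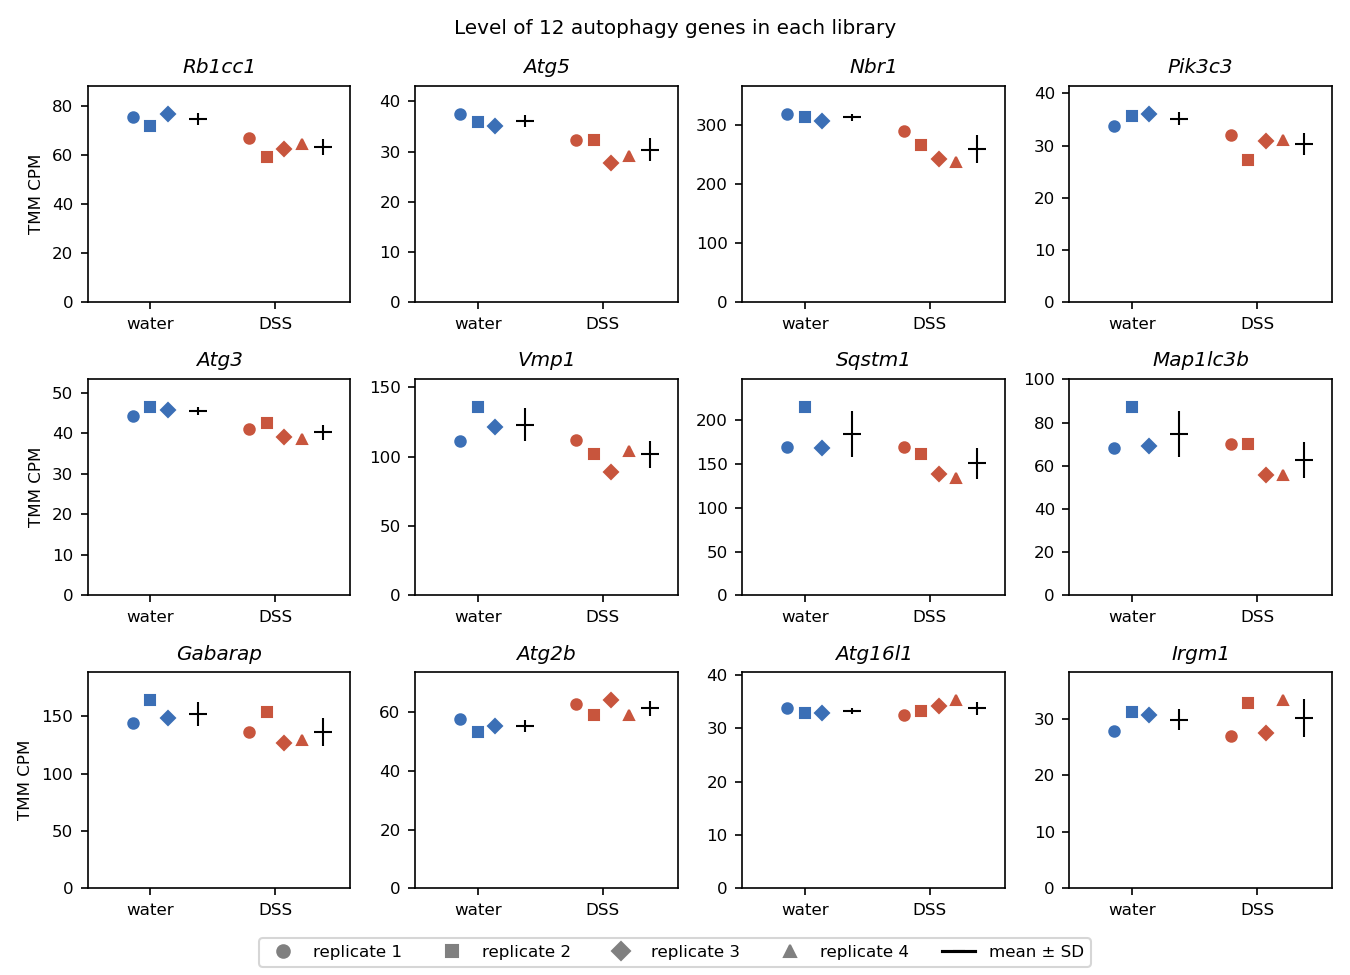
Level of 12 autophagy genes in each library, in TMM-normalised CPM on axes that start at 0, for 3 water (blue) and 4 DSS (red) libraries. Symbols mark the replicate and the cross the mean ± SD. Rb1cc1, Atg5, Nbr1, Pik3c3 and Atg3 lie lower in all 4 DSS libraries, Atg2b higher, and the other 6 overlap between the groups.

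In the conjugation system, 2 of 7 genes were lower at an unadjusted p under 0.05 and 0 higher. Atg5, which is joined to Atg12 to form the conjugating complex, was 37.4, 36.0 and 35.0 CPM in water 1 to 3 and 32.2, 32.4, 27.8 and 29.0 CPM in DSS 1 to 4. The groups did not overlap, and the log2 change was -0.25 ± 0.07 (edgeR adjusted p = 0.179). Atg3, the enzyme that transfers ATG8 proteins to lipid, was 44.4, 46.5 and 45.7 CPM in water and 41.2, 42.5, 39.2 and 38.5 CPM in DSS. All 4 DSS libraries were below water by a small margin, a log2 change of -0.17 ± 0.06. Atg12 stood at 0.04 ± 0.06, on the other side of 0 from Atg5. Atg7, the enzyme that activates both Atg12 and the ATG8 proteins, was 67.1, 63.8 and 62.1 CPM in water and 68.5, 59.3, 47.6 and 48.4 CPM in DSS, where DSS 1 was the highest of all 7 libraries and DSS 3 and DSS 4 the lowest (-0.20 ± 0.12). Atg10, which joins Atg12 to Atg5, and Atg16l2 were at -0.06 ± 0.17 and -0.07 ± 0.11.

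The E-box CACGTG is the core of the element bound by Tfeb and its relatives, and reads the same on both strands. The RefSeq promoter table (GRCm38.p6, windows of 300 bases around each start) held 44 promoters of 36 of the 43 genes. The E-box was in 4 of these, or 9.09%, against 7.15% of the 32851 promoters in the table. The 4 belong to Atg3, Atg5, Atg7 and Atg14. The ATF4-type element TGATGNAA, searched on both strands, was in 0 of the 44 against 3.97% of all promoters. The promoters of Atg3 and Atg5, both on the plus strand, are shown with the E-box in capitals, since both genes were lower in all 4 DSS libraries. Atg7 and Atg14, the other genes with the E-box, overlapped between the groups with TMM and are not shown. In Atg3 the first of 2 E-boxes begins 94 bases before the start, and in Atg5 it begins 14 bases before. A match describes the letters only.
Atg3, chr16:45158579-45158878: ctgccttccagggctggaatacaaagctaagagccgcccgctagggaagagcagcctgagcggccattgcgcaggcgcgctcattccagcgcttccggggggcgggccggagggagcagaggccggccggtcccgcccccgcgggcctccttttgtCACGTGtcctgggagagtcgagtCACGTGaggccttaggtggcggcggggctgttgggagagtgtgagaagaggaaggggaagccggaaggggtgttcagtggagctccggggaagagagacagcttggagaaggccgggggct
Atg5, chr10:44268089-44268388: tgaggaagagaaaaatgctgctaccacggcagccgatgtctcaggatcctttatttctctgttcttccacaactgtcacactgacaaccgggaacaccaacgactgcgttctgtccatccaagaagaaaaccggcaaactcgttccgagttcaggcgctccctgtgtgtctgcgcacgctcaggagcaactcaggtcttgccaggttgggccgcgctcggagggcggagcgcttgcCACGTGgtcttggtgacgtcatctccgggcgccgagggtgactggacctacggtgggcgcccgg

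The 4 Atg4 proteases, which trim ATG8 proteins before conjugation and release them afterwards, had 0 genes below an unadjusted p of 0.05 in either direction. Atg4d was 39.8, 43.7 and 37.1 CPM in water and 41.9, 44.9, 40.7 and 42.1 CPM in DSS (0.08 ± 0.07). Its exons share 19.3% of their bases with Kri1 on the opposite strand, which had 3096 counts beside 7739 for Atg4d. Atg4b was at 0.02 ± 0.06, Atg4c at -0.08 ± 0.09 and Atg4a, the least abundant of the 4 per length, at -0.17 ± 0.12.

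The 5 ATG8 genes all had estimates below 0 (median -0.24), but 0 of 5 had an unadjusted p under 0.05. With library totals Gabarap and Map1lc3a turned above 0, Map1lc3a also without DSS 4. Over all settings tried, the estimates nearest 0 were -0.022 for Map1lc3b, -0.028 for Gabarapl1 and -0.0031 for Gabarapl2. Gabarap was 144, 164 and 148 CPM in water 1 to 3 and 136, 153, 126 and 129 CPM in DSS 1 to 4, with DSS 2 inside the water range. The log2 change of -0.16 ± 0.08 had an interval of -0.35 to 0.03. Map1lc3b, the LC3 gene used most widely as an autophagy marker, was 68.3, 87.1 and 69.0 CPM in water and 69.9, 70.3, 55.7 and 55.7 CPM in DSS (-0.25 ± 0.12, edgeR adjusted p = 0.357). Water 2 stood above the other water libraries, and DSS 1 and DSS 2 lay at the level of water 1 and water 3. Gabarapl1 and Gabarapl2 were at -0.26 ± 0.13 and -0.24 ± 0.11. Map1lc3a, low at 9.40 ± 0.501 CPM in water (SD, n = 3), ranged from 6.09 CPM in DSS 4 to 11.0 CPM in DSS 2 and was at -0.11 ± 0.18.

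Cargo receptors, which link ubiquitin-tagged or other cargo to ATG8 proteins, also had 5 of 5 estimates below 0 (median -0.13), 2 of them at an unadjusted p under 0.05, while Optn, Tax1bp1 and Calcoco1 turned above 0 with library totals. Calcoco1 also turned with the age covariate, in 10-week mice alone and without water 2, DSS 3 or DSS 4. Nbr1 was 318, 314 and 306 CPM in water and 289, 266, 242 and 238 CPM in DSS. No DSS library reached the lowest water library, and DSS 3 and DSS 4 were furthest below. The log2 change of -0.27 ± 0.08 had an edgeR adjusted p of 0.192, while DESeq2 gave an adjusted p of 0.0344. Nbr1 (ENSMUSG00000017119.19) lies on chromosome 11 from 101552149 to 101581951, plus strand. Sqstm1, encoding the receptor p62, was 169.8, 215 and 169 CPM in water and 169, 161, 138 and 134 CPM in DSS. The groups overlapped, since DSS 1 was level with water 1 and water 3, and water 2 stood above the rest. Its log2 change was -0.29 ± 0.12 (edgeR adjusted p = 0.275). Tax1bp1 was 268, 298 and 268 CPM in water and 242, 257, 288 and 242 CPM in DSS, where DSS 3 was high and the groups overlapped (-0.11 ± 0.08). Optn was at -0.13 ± 0.07, with all 4 DSS libraries below water, and Calcoco1 at -0.03 ± 0.13.

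The regulators and late-acting genes that could be tested, Irgm1 among them, were all 4 estimated above 0 (Irgm1 turned as given above), with 0 at an unadjusted p under 0.05. Tecpr1, a tethering factor in the fusion of autophagosomes with lysosomes, was 68.5, 71.3 and 68.1 CPM in water and 68.6, 88.0, 69.4 and 82.4 CPM in DSS (0.15 ± 0.09). DSS 2 and DSS 4 stood above water while DSS 1 and DSS 3 lay inside its range. Epg5, also of that fusion step, was 30.9, 27.4 and 28.2 CPM in water and 31.0, 27.9, 33.1 and 30.9 CPM in DSS (0.09 ± 0.08). Tfeb was 7.53, 7.97 and 8.88 CPM in water and 7.84, 8.80, 8.10 and 9.79 CPM in DSS (0.09 ± 0.12), with an overlap.

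Which DSS libraries were low in the autophagy genes depended on the scaling. With TMM the lowest DSS value was in DSS 3 or DSS 4 for 30 of the 42 genes, and with library totals for 15 of 42, where DSS 1 was lowest for 22. Averaged over the 42 genes, the log2 level set against the mean of the water libraries came to -0.03, -0.02, -0.14 and -0.14 in DSS 1 to 4, and lay between -0.03 and 0.05 in the water libraries. With library totals the same averages were 0.07, 0.17, 0.18 and 0.16 in DSS 1 to 4. For the ATG8 family the averages with TMM were -0.13, 0.01, -0.29 and -0.41 in DSS 1 to 4, and with library totals -0.03, 0.20, 0.03 and -0.12. For the cargo receptors they were -0.07, -0.10, -0.23 and -0.27 with TMM, and 0.04, 0.10, 0.10 and 0.02 with library totals. The TMM factors were themselves largest in DSS 3 and DSS 4, at 1.14 and 1.12. DSS 3 and DSS 4 were also the libraries with the lowest Paneth marker sums given above, and the part of that in these levels was not tested. The median coefficient of variation was 5.41% over the water libraries and 9.07% over the DSS libraries, and 32 of 42 genes varied more in DSS.

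**Figure D4:**
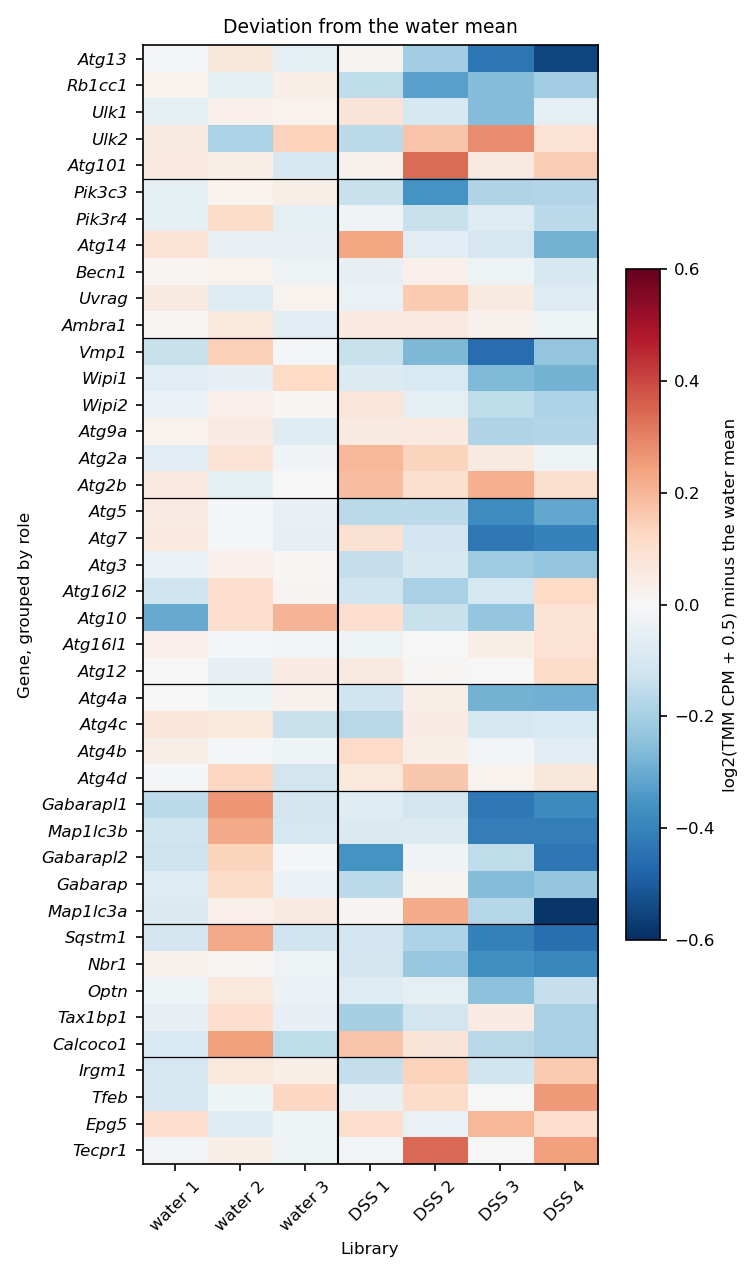
Deviation of 42 autophagy genes (rows, by role) from the water mean in each of 7 libraries (columns), as log2(TMM CPM + 0.5) minus the mean of the 3 water libraries. Blue is lower and red higher. On this TMM scale, but not with library totals for the average of the 42 genes, DSS 3 and DSS 4 hold the deepest blue. Examples are Atg13, Atg7, Sqstm1, Nbr1 and, on average, the ATG8 family.

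A further 59 genes around the pathway, outside the 43, were tested in the same fit. In edgeR 0 of 59 passed in either direction at an adjusted p under 0.05, and at an unadjusted p under 0.05 12 were lower, or 20.3% against 7.35% of all genes, and 4 higher, or 6.78% against 8.36%. DESeq2 called 3 of them lower and 1 higher, where it called 2.24% and 2.62% of all genes with an adjusted p. Among 7 receptors for autophagy of the endoplasmic reticulum (Calcoco1 is one of them), 3 were lower at an unadjusted p under 0.05: Sec62 at -0.27 ± 0.08, Retreg1 at -0.31 ± 0.11 and Rtn3 at -0.17 ± 0.07. Sec62, also a subunit of the translocation channel, averaged 259.8 ± 4.45 CPM over 3 water libraries and 215 ± 18.1 CPM over 4 DSS libraries (SD), and DESeq2 gave an adjusted p of 0.0254. Among 8 mitophagy genes, the mitochondrial receptors Bnip3l and Fundc1 were lower (-0.22 ± 0.06 and -0.20 ± 0.08) and Phb2, a prohibitin of the inner mitochondrial membrane, higher at 0.22 ± 0.06, the last with a DESeq2 adjusted p of 0.0259. The 12 fusion genes had 0 in either direction, with Vps33a at 0.10 ± 0.06, Vps41 at -0.08 ± 0.06 and Vps16 at -0.08 ± 0.06, all subunits of tethering complexes.

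Of 15 nutrient sensing genes upstream of autophagy, 2 were lower and 2 higher at an unadjusted p under 0.05. Rheb, the GTPase that activates the growth kinase complex mTORC1, was 70.0, 71.5 and 65.5 CPM in water and 57.2, 61.2, 55.9 and 52.6 CPM in DSS, a log2 change of -0.28 ± 0.07 with a DESeq2 adjusted p of 0.0215. Fnip1, a partner of folliculin, was at -0.29 ± 0.08, and Prkab1, a subunit of the energy sensor AMPK, at 0.24 ± 0.07. Of 7 transcription factors and cofactors, Atf4, which activates stress and autophagy genes, was 271, 304 and 250.0 CPM in water and 230.3, 231, 187 and 206 CPM in DSS (-0.37 ± 0.10, DESeq2 adjusted p = 0.0166). Mitf, a relative of Tfeb, was lower at -0.60 ± 0.17 from 4.29 ± 0.468 CPM in water (SD, n = 3), and Foxo1 was at 0.09 ± 0.07. Of 11 further core genes, 1 was higher and 3 lower: Snx18 was at 0.26 ± 0.08, while Atg9b and C9orf72 were at -0.84 ± 0.27 and -0.26 ± 0.11, each at an unadjusted p under 0.05.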

How the data were processed

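Each deposited file holds the authors' raw gene counts, which featureCounts 1.5.3 made on GENCODE M15 exons from primary alignments, per the file headers, with at least 0.8 of a read overlapping and strand unused. Tools listed in the submitters' processing notes are STAR 2.5.3a, featureCounts 1.5.2 and DESeq2, with build mm10. Reads of opposite-strand genes cannot be told apart, and 13 of the 43 genes share exon bases with another gene. Symbols came from GENCODE M21 for 52403 of 52550 identifiers. The members and gene lists were chosen with earlier results of these data known.

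With edgeR 4.0.16 (filterByExpr, TMM factors of 0.899 to 1.14, quasi-likelihood test), DSS was compared with water over 17449 genes, and p-values were adjusted by Benjamini-Hochberg and called under 0.05. Each log2 change (DSS over water) carries the standard error of the fit, and CPM is TMM-normalised. The alternative tools were limma 3.58.1 (voom with quality weights) and DESeq2 1.42.0, and the scripts were tested on simulated data. A count of 3 is 0.0883 to 0.144 CPM, which covers counting error only. Values in every library are given for Atg16l1, Irgm1 and Lrrk2, the 8 smallest p-values in each direction and the 5 highest levels per length, and up to 3 genes are named per further list. The library values of Atg13, Atg7, Becn1, Map1lc3b, Rheb and Atf4, and the other members named, were added after values were seen.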

Additional observations from a re-analysis of the deposited data

Results flagged for a closer look

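Of 60 genes examined over the 4 DSS libraries (the 42 autophagy genes and 18 pathway genes named with them), Vps41 had 1 library far from the others. Its DSS values were 48.0, 48.0, 48.0 and 48.8 CPM in DSS 1 to 4, so that the gap of DSS 4 to the nearest library made up 0.973 of a narrow range. That is past Dixon's 95% critical value, and by chance about 5% of genes would be.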

How the results depend on the processing

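No paired analysis was possible because the replicate numbers used here only name libraries in the order of deposit. The sample titles of water 3, DSS 2 and DSS 3 share 1 number that is explained nowhere in the labels. With that number as a covariate, added after seeing the data, 0 autophagy genes were called, and at an unadjusted p under 0.05 there were 0 higher and 8 lower (19% against 6.21% of all genes). The number of genes called over all genes, 0 in each direction, depended on the setting. It was 2084 higher and 28 lower with library totals, 346 and 296 with DESeq2, and 240 and 201 with no low-count filter. Leaving out 1 library at a time gave 0 to 168 higher and 0 to 135 lower, with both maxima without DSS 1, and 9 higher and 0 lower without DSS 4. Of the autophagy genes, 5 were called higher with library totals (Atg2a, Atg2b, Atg4b, Atg4d and Tecpr1), the same 11.9% as of all genes, and 2 lower with DESeq2. At an unadjusted p under 0.05, no filter gave 0 higher (against 5.56% of all genes) and 12 lower (28.6% against 4.57%). Library totals gave 14 higher (33.3% against 35.7% of all genes) and 0 lower (against 1%). The larger share of lower genes was thus not seen with library totals. With DESeq2 size factors in edgeR, or with scaling without granule genes, the share of autophagy genes lower was the same as in the main fit. With age as a covariate, 1 autophagy gene was higher (2.38% against 5.24% of all genes) and 6 were lower (14.3% against 4.68%) at an unadjusted p under 0.05. The 10-week mice had 1 water library, too few for a count at this threshold. Their median log2 change was -0.089 for the autophagy genes and 0.0029 over all genes. At an unadjusted p under 0.05, leaving out 1 library gave 0 to 1 higher, at most 2.38% against 5.28% to 9.30% of all genes. It gave 5 to 12 lower: 5 without water 2 (11.9% against 5.35% of all genes) and 12 without DSS 1 (28.6% against 8.80%). The median log2 change of the autophagy genes was 0.15 with library totals and -0.18 in lane 6, where DSS 4 is the only DSS library.

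With library totals, which move all genes up, the log2 change turned to 0.058 for Atg3, 0.015 for Bnip3l, 0.037 for Fundc1, 0.075 for Gabarap, 0.021 for Pik3c3, 0.058 for Rtn3, 0.13 for Tax1bp1, 0.15 for Vps16, 0.15 for Vps41 and 0.048 for Wipi1. With age as a covariate Irgm1 was at -0.046 and Ulk2 at -0.020, and in lane 6 Atg2a was at -0.040. Leaving out 1 library moved Irgm1 between -0.036 and 0.065. Apart from library totals, the cause of these changes was not tested. Over 38 named genes, 653 of 684 values under alternatives kept direction and side of the threshold, 15 passed it newly and 16 changed sign. No gene passed the threshold in the main fit, so none could fall back across it. The alternatives share libraries with the main fit, and most of these genes were picked by their p. Values that shrank to near 0, such as Rb1cc1 at -0.0040, also count as kept.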
